A study of Oryza sativa with 6 samples.

Results

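The subject is a set of 50 loci with many reads in every library of rice (Oryza sativa) roots, out of 38042 loci in the table. The loci were chosen by their measured values: a scaled count of at least 2000 in each of 6 libraries, and a highest library above 1.4 times the lowest. A scaled count is a number of sequenced fragments assigned to a locus, multiplied by 1 factor per library. Because every library entered that choice, the levels, folds and orders given here describe the loci and are not tests of them. Of the 51 loci with the required minimum, the ratio removed 1. That locus, XLOC_036406, ranged from 2083 to 2613, a ratio of 1.25, and the least variable of the 50, XLOC_022319, had a ratio of 1.58. Nearest to the minimum, a chosen locus had a lowest value of 2004 and a locus left out one of 1996. A ratio above 1.4 was common at every level, at 94.3% of the 262 loci with at least 1000 in all libraries and at 94.8% of the 6395 with at least 100.

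Polyadenylated RNA of 3 root types was sequenced from 2 cultivars with a strand-specific protocol. Mulai is labelled salinity tolerant and IR29 salinity sensitive. In each, the library types were nodal roots, S-type lateral roots and L-type lateral roots, with 1 library for each cultivar and root type and no replicate. All plants grew under the same stated day and night temperature and humidity. The labels name no salt treatment for any library, and the sources used here state neither plant age nor how many plants a library holds. The labels tie Mulai and IR29 to different earlier record sets, and the effects of cultivar and record set cannot be told apart. Markers of the root types could not be checked, as no locus carries a gene name. In whole roots, fewer cells of a type and less RNA per cell cannot be told apart either.

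Nodal roots emerge from the nodes of the rice stem and form the main axes of the root system. Lateral roots branch from them: S-type laterals are short, thin and do not branch again, whereas L-type laterals are longer and thicker and carry further laterals. In plant tissues a small number of genes usually supplies a large share of messenger RNA, and in roots these commonly include genes for metallothioneins, translation factors and cytoskeletal and cell wall proteins. Which protein each of the 50 loci encodes is not known here, since the table pairs no gene name with its identifiers and 0 of the 38042 identifiers matched the available gene table. Only identifiers are therefore given. Reads were not divided by transcript length, so that the order of loci is one of reads and not of molecules. Length does not hinder comparing a locus between libraries. The processing notes name the rice build IRGSP-1.0, and how closely each cultivar matches it was not tested.

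The 50 loci together took the largest share of reads in nodal roots. In Mulai nodal roots it was 6.45% (6.43 to 6.47, 95% exact binomial bounds), and IR29 nodal roots had 7.62% (7.59 to 7.64). It was 5.89% in Mulai S-type (5.87 to 5.91) and 5.56% in IR29 S-type roots (5.54 to 5.58). In L-type roots it was 5.82% in Mulai (5.80 to 5.84) and 5.19% in IR29 (5.16 to 5.21). For these 50 loci both nodal shares lay above all 4 lateral root shares. The order depended on the choice of loci. The 55 loci that the same rule chose after scaling by read totals held 6.64% of the Mulai nodal and 6.80% of the Mulai S-type reads. It also differed for the 100 loci with the most reads in each library, which need not be abundant elsewhere. In Mulai these held 12.15% of the nodal, 14.68% of the S-type and 11.01% of the L-type reads. In IR29 they held 13.92%, 14.64% and 10.66% in the same order. With the top 50 of each library, S-type roots were likewise highest and L-type roots lowest in each cultivar. The intervals cover counting error only. Library totals ranged from 3891153 to 7904454 reads, and no locus of the set had fewer than 1365 reads in a library, for a counting error of at most 2.71% of a value. Reads were spread unevenly within the set: between 11 and 15 of the 50 supplied the larger part of its reads, depending on the library.

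These loci are abundant in all libraries rather than the top of any one. Among the 50 loci with the most reads in a library, 25 belonged to the set in Mulai nodal, 26 in IR29 nodal, 29 in Mulai L-type and 22 in IR29 L-type roots. In S-type roots the number was 21 in Mulai and 17 in IR29. In all, 716 loci reached a scaled count of 2000 in some library, and 665 of them were below it in another. The single most abundant locus was outside the set in both S-type libraries and in IR29 L-type roots, and was XLOC_012868, a locus of the set, in the other 3 libraries.

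**Figure D1:**
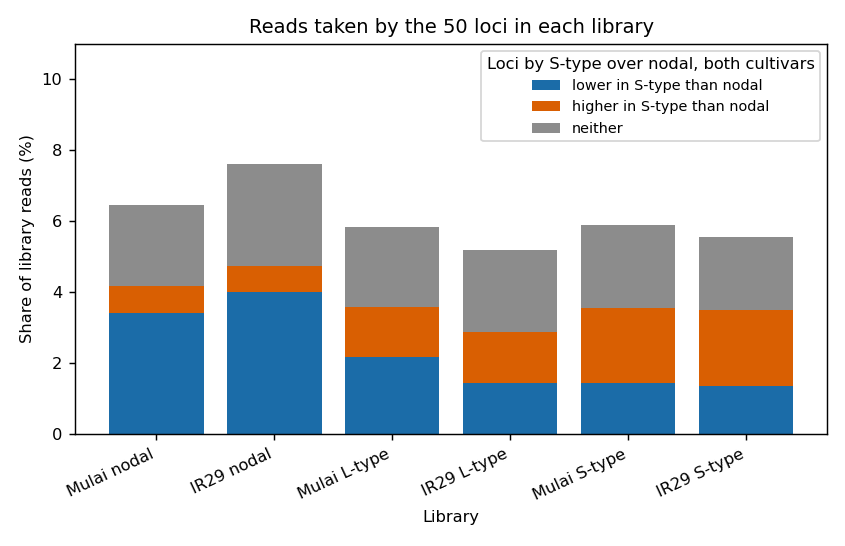
Percent of each library's reads (vertical axis) taken by the 50 loci, stacked by whether a locus was at least 1.4-fold lower, at least 1.4-fold higher or neither in S-type against nodal roots of both cultivars; 1 library per bar. The nodal bars reach 6.45% and 7.62%, and the part lower in S-type roots shrinks from over 3% in nodal to under 1.5% in S-type libraries.

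By mean share of reads, the leading loci were XLOC_012868, XLOC_017437, XLOC_008717 and XLOC_033809. Together they held between 0.919% of the IR29 L-type and 1.67% of the IR29 nodal reads. Of these, 3 had their highest values in nodal roots and 1 in S-type roots.

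XLOC_012868 had scaled counts of 23038, 16313 and 16076 in Mulai nodal, S-type and L-type roots, and of 30881, 18823 and 8474 in IR29 in the same order. It was highest in the nodal library of both cultivars, where it took 0.485% (Mulai) and 0.63% (IR29) of the reads. The IR29 L-type library was low, the next lowest library being 1.90 times as high, the widest such gap in the set with the deposited scaling. By share of reads the gap was 1.58, and that of XLOC_034571, at 2.05, was wider. XLOC_008717 had 16502, 12279.7 and 12669.8 in Mulai and 24299, 13226 and 12056 in IR29. Its nodal libraries were above all lateral root libraries, which differed little from each other. XLOC_033809 had 18225, 6782 and 12567 in Mulai and 24211, 7901 and 5506 in IR29. The nodal libraries were again highest, but the L-type library lay above the S-type library in Mulai and below it in IR29.

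XLOC_017437 showed the reverse division and the widest range of all, a ratio of 15.6 between its highest and lowest library. Its scaled counts were 4107, 41277 and 14315 in Mulai nodal, S-type and L-type roots and 2651, 38675 and 15863 in IR29. Nodal, L-type and S-type libraries followed in that order in both cultivars without overlap, and the cultivars differed less than the root types. In S-type roots this 1 locus held 0.742% of the Mulai and 0.63% of the IR29 reads, against 0.086% and 0.054% in nodal roots.

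**Figure D2:**
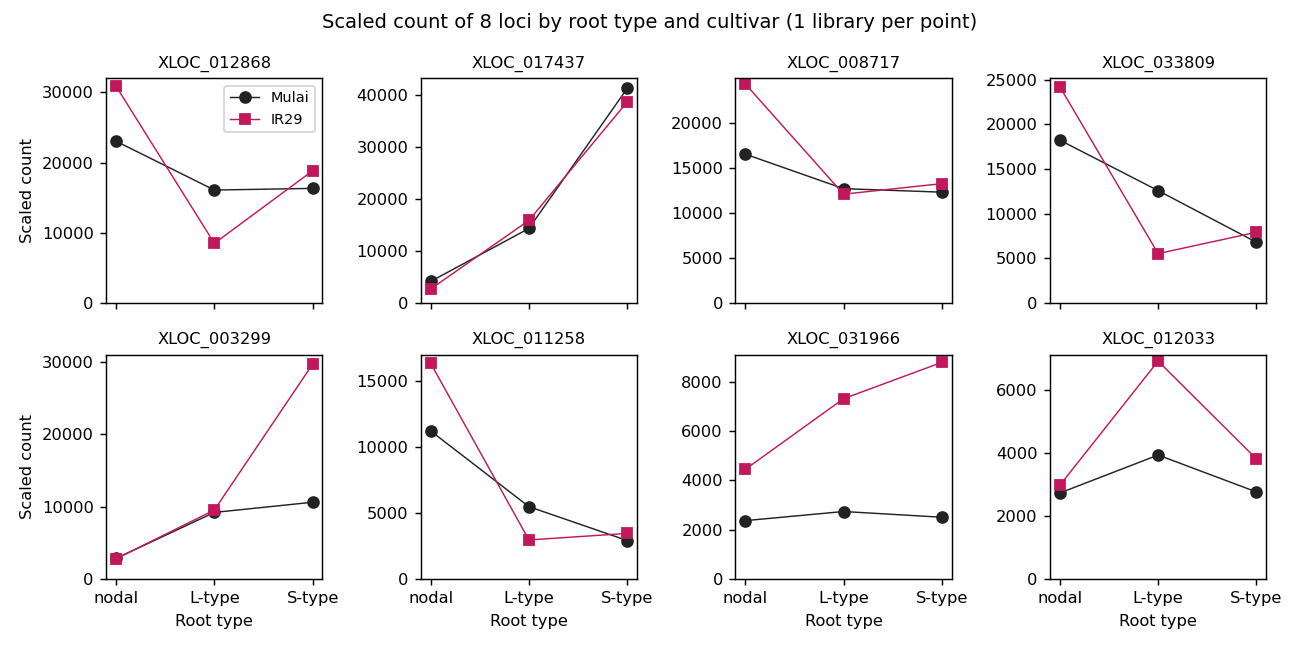
Scaled counts (vertical axis, from 0) of 8 of the loci by root type, with black circles for Mulai and pink squares for IR29; each point is 1 library. XLOC_017437 and XLOC_003299 are lowest in nodal roots of both cultivars, XLOC_011258 is highest there, and XLOC_031966 is higher in IR29 in every root type.

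Over the whole set, root type accounted for more of the spread of values than cultivar. For each locus the sum of squares of the log2 scaled counts was divided into cultivar (1 degree of freedom), root type (2) and the remainder (2), which holds root type differences that are unlike in the cultivars plus library noise. Root type held the largest part in 44 of the 50 loci, cultivar in 3 and the remainder in 3. The median parts were 74.3%, 7.20% and 14.98%. Over all 18205 tested loci with a read in every library, root type was largest in 67.7%, with a median part of 60.8%. Under scaling by the library's read total in place of the deposited scaling (total-read scaling below), root type was largest in 39 loci, cultivar in 5 and the remainder in 6.

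The 3 loci led by cultivar were XLOC_031966, XLOC_025878 and XLOC_010144, and the 3 led by the remainder were XLOC_011084, XLOC_022319 and XLOC_021947; the last 5 are named because the counts are small and were picked after their values were seen. XLOC_011084 had scaled counts of 8278, 9537 and 11792.5 in Mulai nodal, S-type and L-type roots and of 3534, 12232 and 3560.1 in IR29. It was low in the nodal and L-type libraries of IR29 alone.

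**Figure D3:**
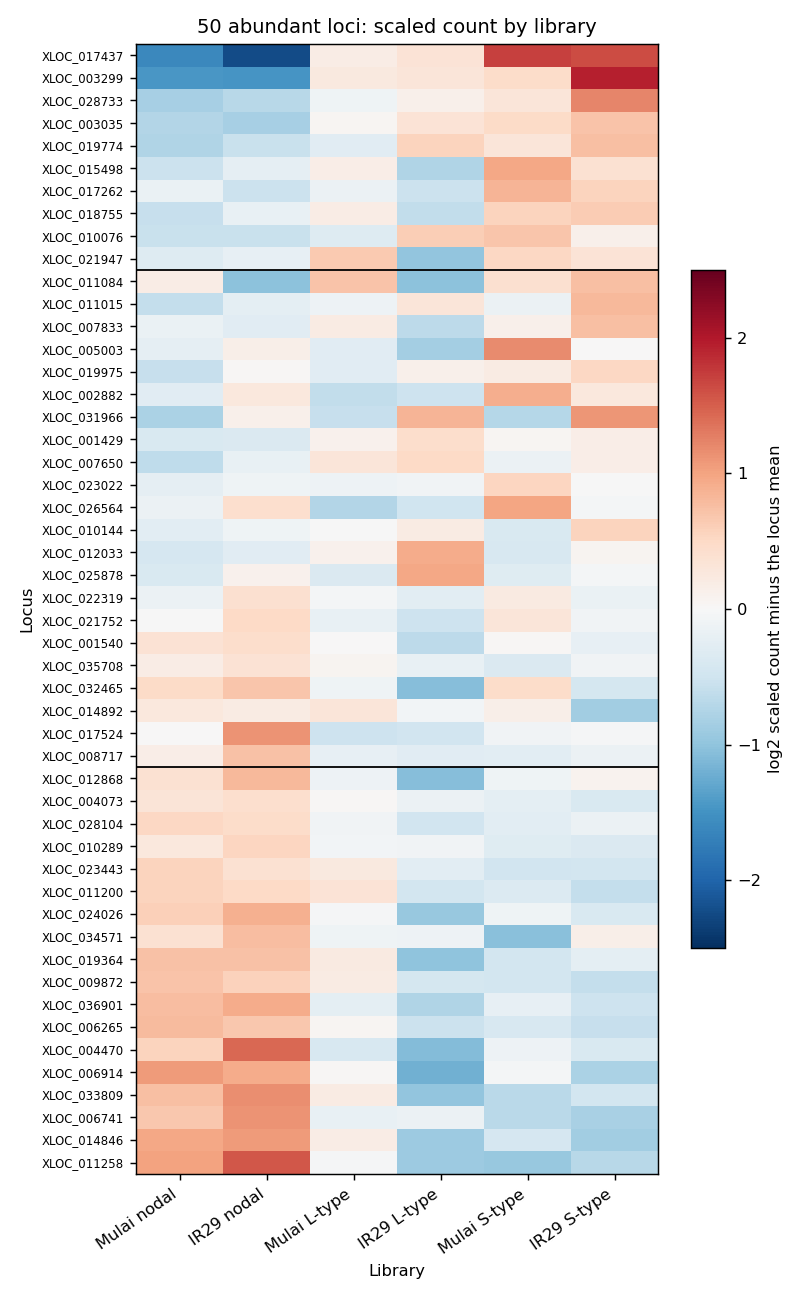
Each row is 1 of the 50 loci and each column 1 library; colour gives the log2 scaled count minus the mean of that locus, red for above and blue for below. Black lines part the 10 loci at least 1.4-fold higher in S-type than nodal roots of both cultivars (top), the 22 that were neither, and the 18 that were lower (bottom).

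S-type roots were set against nodal roots to see how abundant transcripts are divided between short laterals and main axes. In both cultivars, 10 of the 50 loci were higher in S-type roots by 1.4-fold or more, a rule met by 24.6% of all 20316 tested loci. Lower by as much in both were 18 loci (all tested loci 26.1%). The other 22 did neither. Total-read scaling gave 7 higher and 21 lower, as it lowered the S-type over nodal log2 folds of all tested loci by a median of 0.22 in Mulai and 0.32 in IR29. At a minimum of 2-fold, 6 were higher and 7 lower. Shares of all tested loci are not given for these alternative settings, and nothing is read from their counts.

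The 10 higher loci took 0.753% of the Mulai and 0.738% of the IR29 nodal reads, and 2.11% and 2.13% of the S-type reads. The 18 lower loci took 3.41% and 3.99% of the nodal reads, and 1.43% and 1.36% of the S-type reads. By share, the 18 lower loci fell by more than the 10 higher loci rose. Each class was sorted by its folds in these same libraries, so its direction was set in advance. The classes also differ in size, and nothing is read from the balance. The mean fold over the cultivars (geometric) ranged from 1.62 to 12.1 among the higher loci, with a median of 2.18, and from 0.233 to 0.657 among the lower loci, with a median of 0.457.

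After XLOC_017437, whose S-type over nodal fold was 10.1 in Mulai and 14.6 in IR29, the largest mean fold belonged to XLOC_003299. This locus had 2830.5, 10591.5 and 9188 in Mulai nodal, S-type and L-type roots and 2770.4, 29696 and 9517 in IR29. Both nodal libraries were lowest and nearly equal, and the IR29 S-type library stood 2.80 times above the next highest, the widest such gap in the set. Its S-type over nodal fold was 3.74 in Mulai and 10.7 in IR29.

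The lowest mean folds belonged to XLOC_011258 and XLOC_014846. XLOC_011258 had 11235.5, 2908 and 5482 in Mulai and 16375, 3447 and 2953 in IR29. Both nodal libraries exceeded all lateral root libraries, and the S-type over nodal fold was 0.259 in Mulai and 0.21 in IR29. XLOC_014846 had 9935, 3814 and 5825 in Mulai and 10737, 2793 and 2709 in IR29. It showed the same order, with folds of 0.384 and 0.26.

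Across the 50 loci the S-type over nodal folds of the cultivars, which share no library, correlated at r = 0.84 and rho = 0.83 on the log2 scale, and 43 loci had the same sign. This is a correlation across loci that were measured in the same 4 libraries, and loci are not independent replicates. In this comparison 0 loci had folds of 1.4 or more that pointed opposite ways in Mulai and IR29, and 1 had under total-read or TMM scaling.

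In the model fitted to the whole table (limma on log2 values with cultivar and root type, Benjamini-Hochberg adjusted p under 0.05), 3 of the 50 loci were called higher in S-type roots, with 10.5% of all tested loci called higher. Called lower were 3, with 10.2% of all tested loci called lower. The higher loci were XLOC_017437, XLOC_003299 and XLOC_028733, and the lower loci XLOC_011258, XLOC_014846 and XLOC_006741; XLOC_028733 is named for the small count. XLOC_028733 had 2084, 4606 and 3432 in Mulai nodal, S-type and L-type roots and 2293, 8621 and 4085 in IR29. The libraries that chose the loci also entered this model, and nothing is read from the counts. They depended on the libraries, scaling and tool. edgeR called 4 of the 50 (17.9% of all tested loci) and DESeq2 17 (24.3%). Under total-read scaling limma called 13 (23.5%). Leaving out a nodal or S-type library also changed the limma count. Each such fit holds a lone library of that root type, so its count is not given.

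**Figure D4:**
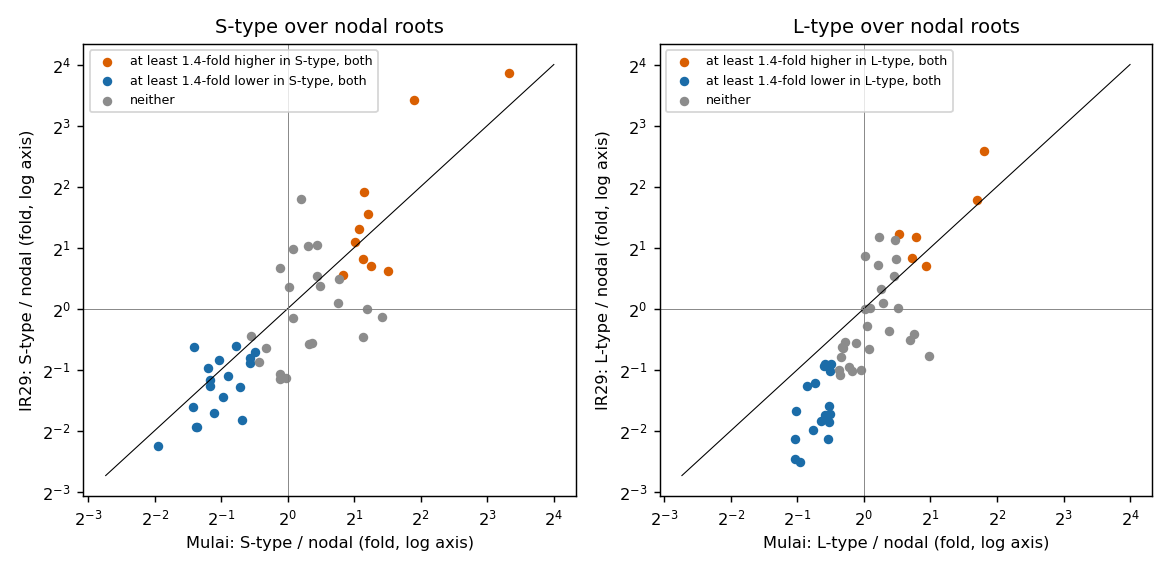
Fold of S-type over nodal (left) and L-type over nodal roots (right) in Mulai (horizontal axis) and IR29 (vertical axis), both on log axes, for the 50 loci; the diagonal marks equal folds. On the left the points follow the diagonal (r = 0.84), and on the right the 17 loci lower in L-type roots of both cultivars lie below it.

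The same comparison was made for L-type against nodal roots. Higher by 1.4-fold or more in both cultivars were 6 loci (13.9% of all tested loci), and lower by as much were 17 (15.7%). The counts were the same under total-read scaling, and TMM scaling gave 8 higher and 15 lower. The mean folds ranged from 1.71 to 4.57 among the higher and from 0.297 to 0.617 among the lower loci. The 17 lower loci took 3.49% of the nodal and 2.17% of the L-type reads in Mulai, and 4.34% and 1.45% in IR29.

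The 2 largest mean folds were again those of XLOC_017437 (3.49 in Mulai and 5.98 in IR29) and XLOC_003299 (3.25 and 3.44). The lowest were those of XLOC_011258 (0.488 and 0.18) and XLOC_004470. XLOC_004470 had 8759, 5416 and 4504 in Mulai nodal, S-type and L-type roots and 15970.0, 4522 and 2794 in IR29. The nodal libraries were highest and the L-type library lowest in both cultivars, with an L-type over nodal fold of 0.514 in Mulai and 0.175 in IR29. The L-type over nodal log2 folds of the 50 loci correlated at r = 0.86 and rho = 0.87 between the cultivars. These folds and the S-type over nodal folds share the nodal libraries. For L-type over S-type roots the correlation was lower, at r = 0.34 and rho = 0.39, and 32 loci had the same sign.

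In these loci the position of L-type roots between the other root types differed between the Mulai and IR29 libraries. Of the 28 loci that differed at least 1.4-fold between S-type and nodal roots, the L-type value lay between the nodal and S-type values in 24 loci in Mulai and in 12 in IR29. In IR29 it lay below both in 15 loci, against 3 in Mulai. Under total-read scaling it lay between in 24 loci in Mulai and 17 in IR29, and below both in 2 and 8. Each position rests on 3 libraries and was not tested. The same counts over all tested loci are not given. Over all 20316 tested loci, L-type over nodal folds of 1.4 or more were also more frequent in IR29 (6653 higher, 6877 lower) than in Mulai (4830 and 4849).

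limma called 0 of the 50 loci higher in L-type than nodal roots (all tested loci 0.0492%) and 0 lower (0.00984%). At an unadjusted p under 0.05 there were 3 higher and 8 lower (19.2% of all tested loci for both directions). edgeR likewise called 0 (0% of all tested loci), and 9 had an unadjusted p under 0.05 (18.1%). DESeq2 gave 2 higher and 6 lower, with 6.39% of all tested loci called.

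L-type and S-type laterals were then set against each other. At least 1.4-fold higher in L-type roots of both cultivars were 2 loci (13.6% of all tested loci), and 6 were lower (13.6%). The split turned to 7 higher and 3 lower under total-read scaling, which moved the L-type over S-type log2 folds of all tested loci up by a median of 0.20 in Mulai and 0.42 in IR29. The balance between the lateral root types therefore depended on the scaling.

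XLOC_012033 was the higher of the pair above, with 2731, 2764 and 3938 in Mulai nodal, S-type and L-type roots and 2977, 3817 and 6927 in IR29. It was highest in the L-type library of both cultivars. XLOC_006741 had 5955, 2316 and 3284 in Mulai and 8112, 2119 and 3359 in IR29. Its L-type libraries stood above the S-type libraries and below the nodal ones. The lowest L-type over S-type folds were those of XLOC_017437 (0.347 in Mulai and 0.41 in IR29) and XLOC_005003.

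XLOC_005003 had 5522, 14822 and 5366 in Mulai nodal, S-type and L-type roots and 7229, 6534 and 3605 in IR29. The Mulai S-type library stood 2.05 times above any other, and the IR29 S-type library lay below the IR29 nodal library. limma called 0 of the 50 loci higher (0% of all tested loci) and 0 lower (0%) in L-type than S-type roots. Unadjusted p-values under 0.05 were found for 0 higher and 3 lower loci, and for 18.7% of all tested loci. edgeR called 0 of the 50 (0% of all tested loci) and found 2 such unadjusted p-values (16.9%). DESeq2 gave 2, both lower, with 5.08% of all tested loci called.

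The cultivars were compared within each root type. In nodal roots 11 of the 50 loci were at least 1.4-fold higher in IR29 (18.3% of all tested loci) and 2 lower (24.5%). In S-type roots 7 were higher (27%) and 9 lower (27.3%). In L-type roots 5 were higher (30.2%) and 21 lower (37.1%). Over the 50 loci, IR29 over Mulai had a median log2 fold of 0.16 (nodal), -0.02 (S-type) and -0.29 (L-type), beside -0.03, -0.01 and -0.05 over all tested loci. Under total-read scaling these medians were 0.12, -0.16 and -0.21, beside -0.07, -0.15 and 0.02.

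**Figure D5:**
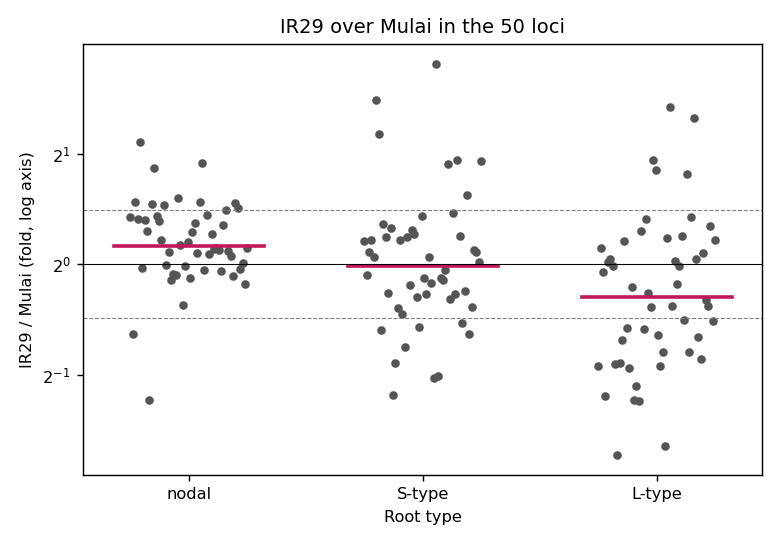
Fold of IR29 over Mulai (vertical axis, log) for each of the 50 loci by root type; pink bars are medians of the log2 folds, and dashed lines mark 1.4-fold. In L-type roots 21 loci lie below the lower dashed line and 5 above the upper one, against 2 and 11 in nodal roots.

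1 locus was at least 1.4-fold higher in IR29 in all 3 root types (7.14% of all tested loci) and 0 were lower (9.9%). It was XLOC_031966, with 2363, 2501 and 2734 in Mulai nodal, S-type and L-type roots and 4446, 8791 and 7317 in IR29. The Mulai libraries were nearly even and all lay below all IR29 libraries, with IR29 over Mulai folds of 1.88, 3.52 and 2.68. Cultivar held 84.1% of its sum of squares, the highest part in the set. limma called 0 of the 50 loci higher in IR29 (2.86% of all tested loci) and 0 lower (4.52%). Unadjusted p-values under 0.05 were found for 1 higher and 0 lower loci, and for 20.3% of all tested loci. edgeR called 0 of the 50 (5.38% of all tested loci) and found 1 such unadjusted p-value (18.4%). The 1 locus called by DESeq2 was XLOC_031966, with 10% of all tested loci called.

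The highest and lowest values were spread unevenly over the libraries. The IR29 nodal library held the highest value of 18 loci and the IR29 S-type library of 11, followed by Mulai S-type (8), Mulai nodal (7), IR29 L-type (4) and Mulai L-type (2). The IR29 L-type library held the lowest value of 20 loci and the Mulai nodal library of 10. Under total-read scaling the lowest value was in the IR29 L-type library for 12 loci, in the IR29 S-type library for 15 and in the Mulai nodal library for 6. The highest value was then in the IR29 nodal library for 18 loci, in IR29 L-type for 10 and in IR29 S-type for 4. With the IR29 L-type library left out, the lowest value was in IR29 S-type for 14 loci, in Mulai nodal for 13, in Mulai S-type for 9 and in Mulai L-type for 7. With the IR29 nodal library left out, the highest was in Mulai nodal for 23 loci. The root type with the highest value was the same in both cultivars for 36 loci, 23 of them nodal, 10 S-type and 3 L-type. That with the lowest value was the same for 32 loci. These counts are not given for all tested loci, so the division is not read as a trait of the set. Over all tested loci, L-type values were at least 1.4-fold lower in IR29 than in Mulai in 37.1% and higher in 30.2%.

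Gaps between a library and the next are likewise counted in the set only, with no share over all tested loci. In 15 loci the highest library was at least 1.4 times the next. These were the Mulai S-type library in 5 loci, IR29 nodal in 4, IR29 S-type in 4 and IR29 L-type in 2. After XLOC_003299 the widest such gap was that of XLOC_017524, with 9812, 9096 and 6831 in Mulai nodal, S-type and L-type roots and 21087, 9489 and 6941 in IR29. The IR29 nodal library stood 2.15 times above the Mulai nodal library, while the S-type and L-type libraries of the cultivars were nearly equal. In 10 loci the lowest library was at least 1.4 times below the next, and this was the IR29 L-type library in 7. XLOC_034571 had a gap of this kind in another library, with 11929, 4498 and 8501 in Mulai and 15736, 10187 and 8405 in IR29. Its Mulai S-type library was the lowest, by a factor of 1.87, and by share of reads of 2.05.

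Within the 50 loci the log2 scaled counts of the nodal libraries correlated at r = 0.92 between the cultivars, those of the S-type libraries at r = 0.78 and those of the L-type libraries at r = 0.53. For IR29 L-type roots r was 0.74 with IR29 S-type and 0.10 with IR29 nodal roots. Mulai L-type roots stood at r = 0.69 with Mulai S-type and at r = 0.65 with Mulai nodal roots. These are descriptions across 50 loci that were chosen from the same values.

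The authors deposited a variance for every scaled count, which did not enter the choice of the loci. Its square root was 69.0% of the scaled count in the median over the 300 values of the set, and 56.1% over the 211 loci with a lowest value between 1000 and 2000. The sources used here do not say how this variance was estimated without replicates. At a standard deviation of 69.0% of each value, libraries at the set's median ratio of 2.74 differ by less than their combined standard deviation. The count that follows therefore mainly describes the size of the deposited variance. In 47 of the 50 loci the highest and lowest library differed by less than the combined deposited standard deviation of the pair. The 3 others were XLOC_017437, XLOC_003299 and XLOC_012868. In each of them the highest library carried an unusually small deposited standard deviation: 0.497% of the value for XLOC_017437 in Mulai S-type roots, 11.6% for XLOC_003299 in IR29 S-type roots and 1.70% for XLOC_012868 in IR29 nodal roots. The other libraries of these 3 loci had at least 57.4%, apart from the IR29 S-type value of XLOC_017437 at 0.513%.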

How the data were processed

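The submitters' processing notes name the rice build IRGSP-1.0 and, in no stated order, Cuffdiff 2.2.1, Cufflinks 2.2.1, TopHat2 2.0.11, Trimmomatic 0.32 and Bowtie. The sources used here give no options or annotation, nor how strand and shared reads were handled. Reads of overlapping or near-identical loci could therefore not be told apart. The authors deposited, per the file headers, a scaled count for each locus and library, here treated as a signal, with 3 variance columns (the uncertainty variance was 0 throughout). All values above 0 were whole multiples of 1 step per library (100%, tolerance 0.1 of a read), which gave whole reads.

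The 20316 loci that reached a value of 10 in 2 or more libraries were tested on log2(value + 1) with limma 3.58.1 (R 4.3.3), with cultivar and root type as terms and p-values adjusted over all tested loci. These folds understate changes of low loci. The fit was tested on simulated data with larger root type changes than most loci of the set had. The simulated cultivars did not differ, so its outcome is not carried over to these loci. Sample replicates from separate plants are not labelled, so the spread behind the p-values is that between these libraries. It holds root type differences that are unlike in the cultivars plus library noise, which may be technical. Alternatives were edgeR 4.0.16 and DESeq2 1.42.0 on recovered reads, 3 other scalings, another pseudocount, no filter, a model without the other factor, other thresholds and leaving out each library.

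The members, the rules and the comparisons were chosen with earlier results of these data known. Loci were named by fixed ranks: the 4 with the highest mean share of reads, the 2 highest and 2 lowest mean folds per comparison among loci at least 1.4-fold in the same direction in every pair, and the 2 widest gaps at either end and overall. The others are named where a count was small or a difference between cultivars was opposite. No sequences are shown, since identifiers could not be paired with genes.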

Additional observations from a re-analysis of the deposited data

Results flagged for a closer look

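A root type fold of 1.4 or more pointed one way in Mulai and the other way in IR29 in 5 of the 50 loci. Behind each fold are 2 libraries, and the difference between the cultivars was not tested. Over all 20316 tested loci this held for 7.06% in S-type over nodal, 9.41% in L-type over nodal and 15.7% in L-type over S-type roots, and in the set for 0, 2 and 3 loci. All 5 involve an L-type library. When values were scaled by each library's read total, 2 of the 5 (XLOC_021947 and XLOC_010076) still had folds of 1.4 or more in opposite directions. The IR29 fold was then 0.753 for XLOC_015498, 0.799 for XLOC_019364 and 0.939 for XLOC_033809. With TMM scaling 4 of the 5 did, with XLOC_033809 at 0.722 in IR29.

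In L-type over nodal roots, XLOC_015498 had a fold of 1.61 in Mulai and 0.70 in IR29, with L-type scaled counts of 9442 and 5049.7. XLOC_021947 had 1.96 in Mulai and 0.587 in IR29, with L-type scaled counts of 7224 and 2318. In both loci the IR29 L-type library was the lowest of its cultivar.

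In L-type over S-type roots, XLOC_010076 had a fold of 0.491 in Mulai and 1.402 in IR29, the latter close to the minimum. XLOC_019364 had 1.62 in Mulai and 0.593 in IR29, and XLOC_033809 had 1.85 and 0.697. XLOC_019364 and XLOC_033809 were highest in nodal roots of both cultivars.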

How the results depend on the processing

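The number of loci (50) was 247 with a minimum of 1000, 9 with a minimum of 4000, and 50 to 74 when a library was left out of the rule; 74 was without the IR29 L-type library. Under scaling by the library's read total (total-read scaling), the rule chose 55 loci, 45 of them among the 50. These 55 loci held 6.64% of the Mulai nodal, 6.80% of the Mulai S-type, 6.27% of the Mulai L-type, 7.86% of the IR29 nodal, 6.32% of the IR29 S-type and 5.38% of the IR29 L-type reads. Applied to TMM scaling it gave 5.99%, 5.87%, 7.697%, 5.68% and 5.288% in these libraries from Mulai S-type on, and applied to median ratio scaling 6.49%, 5.97%, 5.895%, 7.702%, 5.675% and 5.2875% in all 6. At a minimum of 2-fold, 13 loci differed in S-type over nodal roots of both cultivars, 5 in L-type over nodal, 2 in L-type over S-type and 0 in IR29 over Mulai over all root types. The shares of all tested loci at 2-fold are not given. In Mulai alone 22 differed by 1.4-fold in L-type over S-type (56.2% of all tested loci). DESeq2 called 17 of the 50 in S-type over nodal (24.3% of all tested loci) and 8 in L-type over nodal (6.39%). It called 2 in L-type over S-type (5.08%) and 1 in IR29 over Mulai (10%). limma under total-read scaling called 13 in S-type over nodal (23.5%) and 1 in IR29 over Mulai (8.47%). With no filter, limma called 1 in IR29 over Mulai (6.83%). Leaving out a nodal or S-type library changed the number called in S-type over nodal roots. Each such fit holds 1 library of that root type, so its count is not given. In such fits the spread of the lone library of a root type is taken from the other libraries. Under total-read scaling, cultivar was the largest part in 5 loci and the remainder in 6. The cause of these shifts was not tested. The other 78 alternative values of the counts and shares stayed within 1.5 times (counts) or within the interval of the share, and the direction of 0 named folds turned. Chosen after seeing the data were the counts of extremes without the IR29 L-type or IR29 nodal library, the Mulai-only counts, the cultivar count without the L-type pair, the limma fit under total-read scaling, and the other scalings for the extremes, the gaps, the opposite folds and the parts of the variation. Each cultivar and root type has 1 library, so that replicate numbers could not serve as a block. Root types were paired by cultivar instead, as the cultivar term of the model sets them against each other within a cultivar. Without that term limma called 4 of the 50 in S-type over nodal roots (7.82% of all tested loci), against 6 (20.7%) with it.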
